A study of Mus musculus with 60 samples.

Results

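A set of 53 homeobox genes outside the Hox clusters, all regulators of development, was followed in the hippocampus of wild-type (WT) and R6/1 mice. The members were chosen by symbol from the 24508 gene symbols of the expression table, with no lower limit on expression, so that silent genes are included. R6/1 mice are transgenic for the first exon of human huntingtin with an expanded CAG repeat and model Huntington's disease; WT mice lack the transgene. Both genotypes were 30 weeks old, on a mixed background of CBA and C57BL/6. Messenger RNA of hippocampal tissue was sequenced in 9 WT and 9 R6/1 libraries, which the labels describe as independent biological replicates, and lamin B1 domains were available as 1 list per genotype, from pools of 5 mice. Values are RPKM, reads per kilobase of gene corrected for depth, so that levels can be compared between genes.

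Homeodomain proteins are transcription factors that bind short AT-rich DNA sequences and divide the embryonic nervous system into regions and cell types. The ANTP class includes the Engrailed genes of the midbrain and hindbrain, the Dlx genes of forebrain inhibitory neurons, Emx of the dorsal forebrain, and Nkx, Msx, Gbx, Barhl and Evx. The PRD class holds Pitx, Otx, Alx, Phox2a and Shox2; the LIM class holds Lhx, Lmx1 and Isl; the SINE class holds Six2 to Six6; and the TALE class holds the cofactor-like Meis and Pbx3 with the Irx genes. Lhx2, Emx1 and Emx2 act in building the hippocampus and are still transcribed in it, whereas most other members belong to regions or stages outside the adult hippocampus.

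The members' levels spanned silence to moderate expression. Of the 53 members, 26 had reads in every library, 25 in some and 2 (Tlx3 and Evx2) in none; by counting error, 0 reads in a library allow up to 3. A mean of at least 0.5 RPKM over the 18 libraries was reached by 22 members, and 31 lay under it. Lhx2 was the highest (mean of 21.7 RPKM), followed by Meis3 with 11.3 RPKM. Reads were found in every WT library for 28 members and in every R6/1 library for 38, while over all genes the numbers were 16327 and 16405. A single library held reads of 34 to 46 members in WT and of 43 to 49 in R6/1. En1, En2, Six4 and Pou4f1 reached 0.5 RPKM only through the R6/1 libraries. Alx4, with a mean of 0.4995 RPKM, lay just under the limit.

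Depth was even, with 12299434 to 16457022 reads on genes per WT library and 13260311 to 16736544 per R6/1 library. The hippocampal markers were present in every library, with summed levels of 295 to 372 RPKM in WT and 145 to 194 RPKM in R6/1, and all 10 were called lower in R6/1. WT replicates 2, 5 and 6 stood apart by markers of regions that lie next to the hippocampus. The 6 thalamus markers summed to 93.8 RPKM in WT replicate 6 and 42.7 in WT replicate 5, against 18.1 to 33.0 in the other 7 WT libraries and 15.1 to 27.1 in R6/1. The 4 medial habenula markers summed to 7.49 and 11.5 RPKM in WT replicates 2 and 5, 2.42 in WT replicate 6, 1.08 to 1.55 in the other 6 WT libraries and 0.986 to 1.40 in R6/1. Results that rest on these 3 libraries are given with and without them. They were picked after seeing the data, and for some members they include the highest or lowest WT library. A separation or a smaller adjusted p without them is therefore not independent of that choice. The shares of all genes without overlap given below are for 9 libraries per genotype. In whole tissue, fewer cells of a type and less RNA per cell cannot be told apart.

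The promoters of the members shared a high density of CpG, a feature that the choice of members did not use. RefSeq promoter windows on build GRCm38.p6, from 250 bases before to 50 bases after the start, were matched for 41 members (45 windows). Their median GC content was 65.7%, against 52.7% over all 32841 windows, and they held a median of 22 CpG per 300 bases, against 7. A CpG ratio of at least 0.6 together with a GC content of at least 50% was found in 35 member windows (77.8%), in 33.5% of all windows, and in 45.5% of the 21254 windows of genes in the expression table. The TATA sequence TATAAA, on either strand, was in 8.89% of member windows and 13.6% of all; the homeodomain core TAATTA in 6.67% and 5.29%; and CCAAT, on either strand, in 44.4% and 37.4%. The 250 bases before the start are shown 5′ to 3′ on the gene's strand, with each CG in capitals, for 5 members whose R6/1 libraries all lay above the WT libraries and for Dlx1, the neighbour of Dlx2 that did not pass the test.
En1: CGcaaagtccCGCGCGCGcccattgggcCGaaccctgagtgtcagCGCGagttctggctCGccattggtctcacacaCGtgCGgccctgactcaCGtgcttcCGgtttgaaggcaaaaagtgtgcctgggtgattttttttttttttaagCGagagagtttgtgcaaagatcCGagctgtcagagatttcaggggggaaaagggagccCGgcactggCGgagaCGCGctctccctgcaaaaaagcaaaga
Lhx4: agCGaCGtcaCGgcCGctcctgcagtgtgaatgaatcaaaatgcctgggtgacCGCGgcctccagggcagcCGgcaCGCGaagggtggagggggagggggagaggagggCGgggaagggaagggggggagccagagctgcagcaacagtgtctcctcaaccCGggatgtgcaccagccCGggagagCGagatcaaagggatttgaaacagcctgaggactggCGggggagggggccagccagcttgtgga
Isl2: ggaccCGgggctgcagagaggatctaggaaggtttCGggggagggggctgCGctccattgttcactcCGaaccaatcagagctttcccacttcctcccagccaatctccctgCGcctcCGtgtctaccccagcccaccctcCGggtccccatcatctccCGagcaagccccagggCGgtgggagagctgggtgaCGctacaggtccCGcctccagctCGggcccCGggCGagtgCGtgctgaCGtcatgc
Six6: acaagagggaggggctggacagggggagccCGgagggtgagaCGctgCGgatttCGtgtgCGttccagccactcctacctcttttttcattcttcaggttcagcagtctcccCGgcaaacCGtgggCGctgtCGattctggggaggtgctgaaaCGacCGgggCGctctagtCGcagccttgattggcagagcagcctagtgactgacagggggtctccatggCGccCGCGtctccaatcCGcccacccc
Dlx2: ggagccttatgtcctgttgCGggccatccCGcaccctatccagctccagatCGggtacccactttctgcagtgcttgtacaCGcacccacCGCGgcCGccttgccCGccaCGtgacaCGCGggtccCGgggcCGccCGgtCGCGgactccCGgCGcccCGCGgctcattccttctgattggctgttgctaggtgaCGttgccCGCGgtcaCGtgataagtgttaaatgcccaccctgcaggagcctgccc
Dlx1: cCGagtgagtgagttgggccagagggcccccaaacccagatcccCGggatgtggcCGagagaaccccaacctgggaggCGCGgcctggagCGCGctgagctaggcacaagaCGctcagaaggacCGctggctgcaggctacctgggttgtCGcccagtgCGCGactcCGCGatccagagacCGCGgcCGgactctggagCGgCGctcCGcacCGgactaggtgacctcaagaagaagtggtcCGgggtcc
The 2 Dlx sequences held 24 (Dlx2) and 22 (Dlx1) CpG, En1 held 19, Six6 17, Isl2 16 and Lhx4 14. Meis1, whose R6/1 libraries also all lay above WT, is not shown. It held 13 CpG in these 250 bases, and its CpG ratio of 0.589 lay under the limit of 0.6. En2, separated in the same way, had no matched window. The intervals run over chr1:120602237-120602486 on the plus strand for En1, chr1:155742028-155742277 on the minus strand for Lhx4, chr9:55540899-55541148 on the plus strand for Isl2, chr12:72939632-72939881 on the plus strand for Six6, chr2:71546755-71547004 on the minus strand for Dlx2 and chr2:71529195-71529444 on the plus strand for Dlx1, all on GRCm38.p6. A match or a count of CpG describes these letters only.

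More members were higher in R6/1 than lower, and the largest changes were all increases. Of the 22 members tested with limma, 10 were called higher in R6/1 (45.5%, against 24.8% of the 14446 genes tested) and 5 were called lower (22.7%, against 23.5%), with 48.3% of all genes called in either direction. The members' median log2 fold change was 0.07 (all genes: 0.00). Since 4 of the tested members passed the limit through R6/1 only, these counts are not independent of the direction. The members and the other gene lists were also chosen with earlier results of these data known. Their shares therefore cannot test whether they differ from other genes. Without the limit, 51 members had a value, of which 18 were called higher (35.3%, against 17.6% of the 20791 genes with a value) and 5 lower (9.8%, against 17.7%), with 35.2% of all genes called. In 7 members every R6/1 library lay above every WT library (background 4.06%), and in 0 members every R6/1 library lay below (background 4.6%). These 7 were En1, En2, Dlx2, Meis1, Lhx4, Isl2 and Six6. Log2 fold changes here were taken after adding 0.5 RPKM to each value, and are therefore too small for genes of low level. Among members with a mean of at least 0.5 RPKM, 4 of these separations were upwards and 0 downwards (background 5.5% and 6.38%). Of these 4, En1 and En2 reached that mean through the R6/1 libraries only, so their separations are not independent of the limit.

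**Figure D1:**
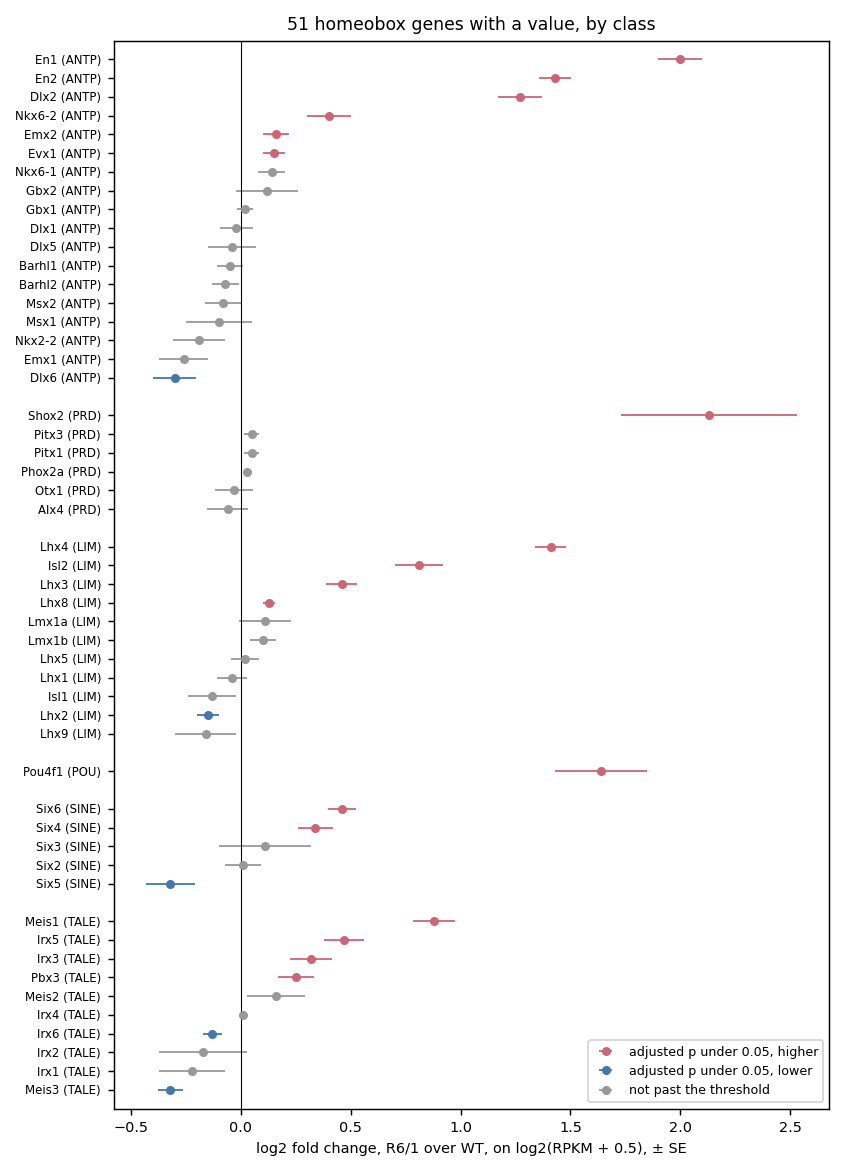
Log2 fold change of R6/1 over WT (x axis, log2(RPKM + 0.5) scale, bars are 1 SE) for the 51 members with a value, grouped by class and fitted with limma over every gene with a value, 9 libraries per genotype. The largest changes, Shox2 at 2.13 and En1 at 2.00, were increases, and the decreases went no further than -0.32.

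The Engrailed genes, which set up the midbrain and the anterior hindbrain, were raised in all R6/1 libraries. En1 (chromosome 1, 122498995 to 122505873 on the plus strand of NCBIM37, as for all gene positions below) had a lowest level of 0 RPKM, a median of 0 and a highest of 0.0248 in WT; in R6/1 the levels were 1.05, 1.41 and 2.26 RPKM. All WT libraries together held 2 reads of En1 and the R6/1 libraries 568. The ratio of the depth-corrected reads was 257, with a 95% counting interval of 70.7 to 2123; such intervals cover the error of counting alone, as the labels describe no molecular identifiers. En2 (chromosome 5) was already transcribed in WT, at 0.204, 0.358 and 0.474 RPKM, and stood at 1.49, 1.78 and 1.97 RPKM in R6/1, 5.09 times higher by the means. The 9 R6/1 values lay above the 9 WT values for both genes. The log2 fold changes were 2.00 for En1 (SE 0.11, limma adjusted p = 1.79e-11) and 1.43 for En2 (SE 0.078, adjusted p = 1.93e-11), and both calls held under all 31 alternatives tried.

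**Figure D2:**
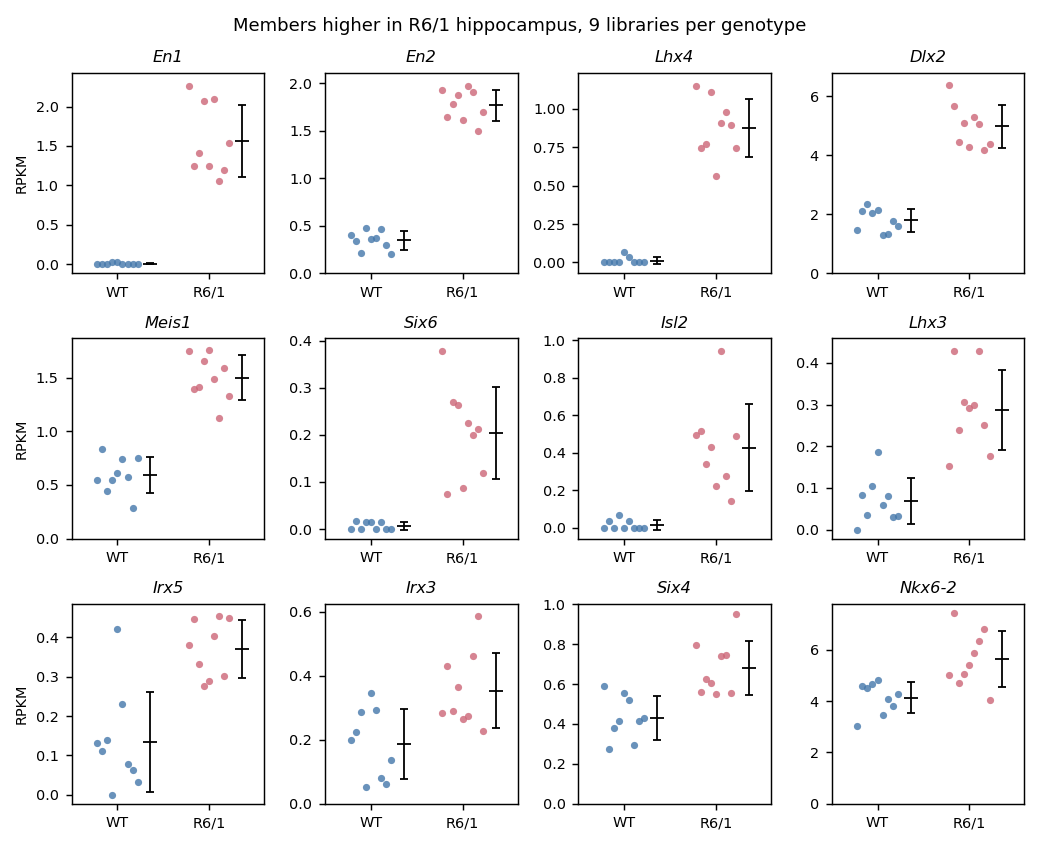
RPKM per library (points) with the mean and SD (bar) for 12 members called higher in R6/1, 9 libraries per genotype, each panel with its own linear y axis. The genotypes do not overlap in En1, En2, Lhx4, Dlx2, Meis1, Six6 and Isl2, and overlap in the other 5.

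Lhx4, Isl2 and Lhx3 were called higher in R6/1 from low WT levels. Of the 11 LIM members, 4 were called higher and 1 lower in the fit of every gene with a value. The shares were 36.4% and 9.09%, against 17.6% and 17.7% of all genes in that fit. Lhx4, which acts with Lhx3 in motor neurons and pituitary, had WT levels of 0 (lowest), 0 (median) and 0.0684 RPKM (highest), and 0.562, 0.892 and 1.15 RPKM in R6/1. The reads behind them were 3 in WT and 228 in R6/1, a ratio of 68.6 with a counting interval of 23.2 to 335. Its log2 fold change was 1.41 (SE 0.07, limma adjusted p = 4.97e-11). Without WT replicates 2, 5 and 6 the remaining 6 WT libraries held 0 reads of Lhx4. Isl2, a motor neuron factor, was at 0, 0 and 0.0672 RPKM in WT and 0.143, 0.429 and 0.943 RPKM in R6/1, with 4 reads against 113. Its log2 fold change was 0.81 (SE 0.11, adjusted p = 9.46e-06), and the highest value belonged to R6/1 replicate 6. Lhx3 was at 0, 0.0583 and 0.186 RPKM in WT and 0.154, 0.292 and 0.429 RPKM in R6/1, so that the highest WT library lay above the lowest R6/1 library. The change of Lhx3 was 0.46 (SE 0.071, adjusted p = 3.92e-05), and without WT replicates 2, 5 and 6 its genotypes no longer overlapped (log2 fold change 0.52).

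Of the remaining LIM members, Lhx8 rose, Lhx2 fell and the others did not pass the test. Lhx8, a factor of forebrain cholinergic neurons, had 1 read in all WT libraries and 14 in R6/1, a ratio of 12.6 with a counting interval of 1.92 to 535, and rose by 0.13 on the log2 scale (limma adjusted p = 0.00113). Its single WT read was in WT replicate 5. The cholinergic neuron markers were not higher in R6/1: they summed to 0.132 to 1.99 RPKM in WT and 0.104 to 0.219 RPKM in R6/1. Their part in the Lhx8 values was not tested. Lhx2, which specifies the hippocampal primordium, was at 18.6, 23.4 and 25.0 RPKM in WT and 17.9, 21.0 and 21.8 RPKM in R6/1, a log2 fold change of -0.15 (SE 0.051, adjusted p = 0.0167). The groups overlapped through WT replicate 6 alone, at 18.6 RPKM, and without WT replicates 2, 5 and 6 the WT values of 21.9 to 25.0 RPKM lay above all R6/1 values. Scaled to each library's own total of reads, the change of Lhx2 was -0.08 (adjusted p = 0.192). Lhx9 was at 2.49, 4.11 and 5.61 RPKM in WT and 2.54, 3.47 and 4.02 RPKM in R6/1, a difference that did not pass the test (adjusted p = 0.345). Lhx1, Lhx5, Lmx1a, Lmx1b and Isl1, with means from 0.033 to 0.192 RPKM in either genotype, did not pass it either. Isl1 and Isl2 are close paralogs; Isl1 stood at 0.575 RPKM in WT replicate 6 and at 0 to 0.118 RPKM in all other libraries.

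Of the 4 Dlx members, from a family that drives the development of forebrain inhibitory neurons, Dlx2 was called higher and Dlx6 lower. Dlx2 (chromosome 2, 71381466 to 71384811, minus strand) was at 1.29, 1.78 and 2.35 RPKM in WT and 4.19, 5.06 and 6.40 RPKM in R6/1, with every R6/1 library above every WT library. The log2 fold change was 1.27 (SE 0.1, limma adjusted p = 3.87e-09). Dlx1, whose start is 18.6 kb away on the opposite strand, was at 3.04, 3.93 and 5.02 RPKM in WT and 3.35, 3.84 and 4.24 RPKM in R6/1, a log2 fold change of -0.02 (adjusted p = 0.874). The sign of that small Dlx1 difference flipped with the scaling (0.05 by each library's own total). Dlx6 was lower, at 1.23, 1.65 and 2.65 RPKM in WT and 1.10, 1.35 and 1.76 RPKM in R6/1 (log2 fold change -0.30, SE 0.096, adjusted p = 0.0136). Its neighbour Dlx5 was at 0.982, 1.88 and 2.21 RPKM in WT and 1.17, 1.79 and 2.26 RPKM in R6/1 and did not pass the test (adjusted p = 0.8). The markers of mature inhibitory neurons were lower, with summed levels of 510 to 618 RPKM in WT and 334 to 421 RPKM in R6/1 and 8 of 10 called lower; their part in the Dlx values was not tested. The annotation places Dlx1as opposite Dlx1 and Dlx6os1 opposite Dlx6, and whether counting used the strand is not given in the sources used here, so reads of these partners cannot be told apart from those of Dlx1 and Dlx6. In all, 16 of the 53 members have an annotated gene on the opposite strand, among them Shox2 (Rsrc1), Isl2 (Gm17226), Lhx2 (Gm13584), Irx3 (D230002A01Rik) and Evx1 (5730457N03Rik).

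The ratio of neighbouring members within a library, a comparison chosen after their values were seen, was taken for the 6 neighbouring couples whose starts lie within 1 Mb and whose means both reach 0.1 RPKM. The log2 ratio of Dlx2 over Dlx1 was -0.94 ± 0.30 in WT and 0.34 ± 0.15 in R6/1 (mean ± SD over 9 libraries), a difference of 1.28, and the ratios of the genotypes did not overlap. The two-sided exact permutation p was 4.11e-05, the smallest that the 48620 regroupings can give, and 0.000247 after Benjamini-Hochberg adjustment over the 6 couples. Dlx2 thus went from the lower to the higher of the couple in these libraries. Since Dlx2 had already been seen to separate, the p gives no independent support, and the adjustment does not cover that choice of comparison. The ratio of Dlx5 over Dlx6 differed by 0.26 (exact permutation, adjusted p = 0.181) and that of Irx5 over Irx3 by 0.16 (adjusted p = 0.206). The ratio of Six4 over Six6 cannot be read, since Six6 reached the limit through R6/1 only and the pseudocount sets its ratio in WT. The ratios of Irx2 over Irx1 and of Six2 over Six3 did not pass the test (adjusted p = 0.716 each).

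**Figure D3:**
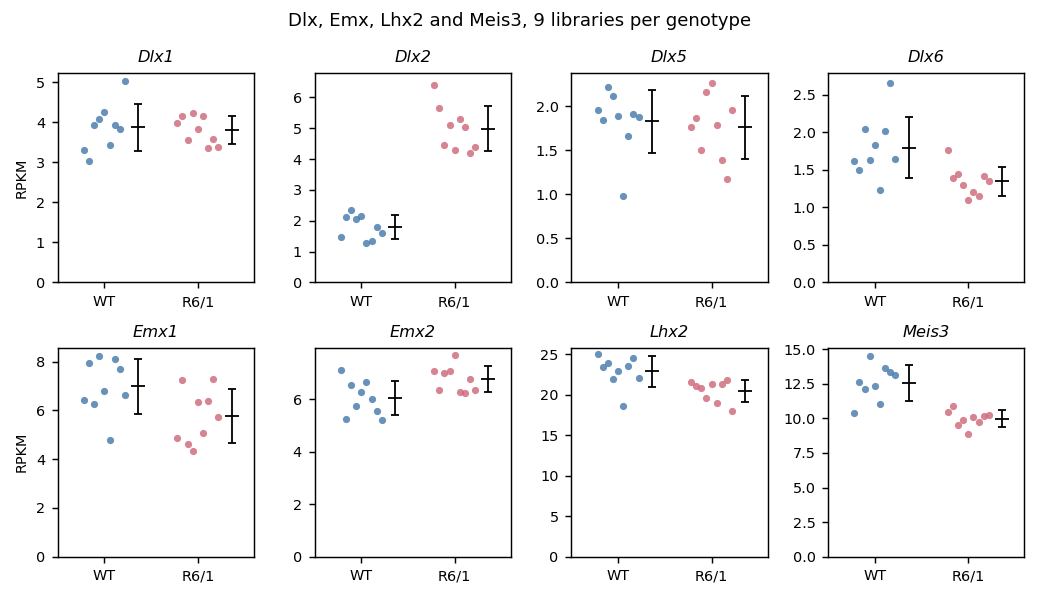
RPKM per library (points) with the mean and SD (bar) for the 4 Dlx members, Emx1, Emx2, Lhx2 and Meis3, 9 libraries per genotype, linear axes from 0. Dlx2 is separated between genotypes, whereas the ranges of the neighbouring Dlx1 overlap; Lhx2 and Meis3 sit lower in R6/1.

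Shox2 and Pou4f1 reached R6/1 levels that most WT libraries did not approach, and the WT libraries differed strongly among themselves. Shox2 (chromosome 3, 66775649 to 66785693, minus strand), a PRD-class factor of thalamus, spinal cord and limb, was at 0 (lowest), 0.207 (median) and 7.70 RPKM (highest) in WT and 2.74, 3.81 and 4.83 RPKM in R6/1. The WT maximum was WT replicate 6, the next WT library was replicate 5 at 1.36 RPKM, and the other 7 stood at 0 to 0.368 RPKM. Its log2 fold change was 2.13 (SE 0.39, limma adjusted p = 0.00014). Without WT replicates 2, 5 and 6 it was 2.77 (adjusted p = 3.1e-10, fitted over every gene with a value), with no overlap and a mean of 0.131 RPKM in the 6 WT libraries left. Those 3 were the highest WT libraries for Shox2, so the separation and the smaller adjusted p are not independent of leaving them out. The authors' deposited table, whose fold changes are shrunken, gives Shox2 a log2 fold change of 0.39 with an adjusted p of 0.102. Among WT libraries Shox2 was highest where the thalamus markers were highest. In R6/1 the thalamus markers summed to 15.1 to 27.1 RPKM, while Shox2 was at least 2.74 RPKM. In WT these markers summed to 18.1 to 33.0 RPKM outside replicates 5 and 6. Over all 18 libraries 0 of the 6 markers were called higher and 4 lower by limma, with WT replicates 5 and 6 included. The source of the Shox2 reads in R6/1 was not tested.

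Pou4f1 (chromosome 14), the single POU-class member and a factor of sensory and habenular neurons, was at 0, 0.0167 and 1.07 RPKM in WT and 0.804, 1.57 and 1.94 RPKM in R6/1. WT replicates 5 (1.07 RPKM), 2 (0.614) and 6 (0.146) held nearly all of its WT reads, and the other 6 WT libraries held 3 reads in all. The log2 fold change was 1.64 (SE 0.21, limma adjusted p = 2.1e-06), and 1.98 with no overlap without these 3 libraries (adjusted p = 5.89e-09, fitted over every gene with a value). These 3 were the highest WT libraries for Pou4f1, so that separation is not independent of leaving them out. The authors' deposited DESeq2 table, whose fold changes are shrunken, gives Pou4f1 a log2 fold change of 0.54 with an adjusted p of 0.0159. The medial habenula markers summed to at most 1.40 RPKM in every R6/1 library, under the 7.49 and 11.5 RPKM of WT replicates 2 and 5. The source of the Pou4f1 reads in R6/1 was not tested. Irx1 and Irx2 followed the same WT libraries, as Irx2 stood at 1.00, 0.629 and 0.497 RPKM in WT replicates 5, 2 and 6, at 0 to 0.0319 RPKM in the other 6 and at 0 to 0.296 RPKM in R6/1.

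**Figure D4:**
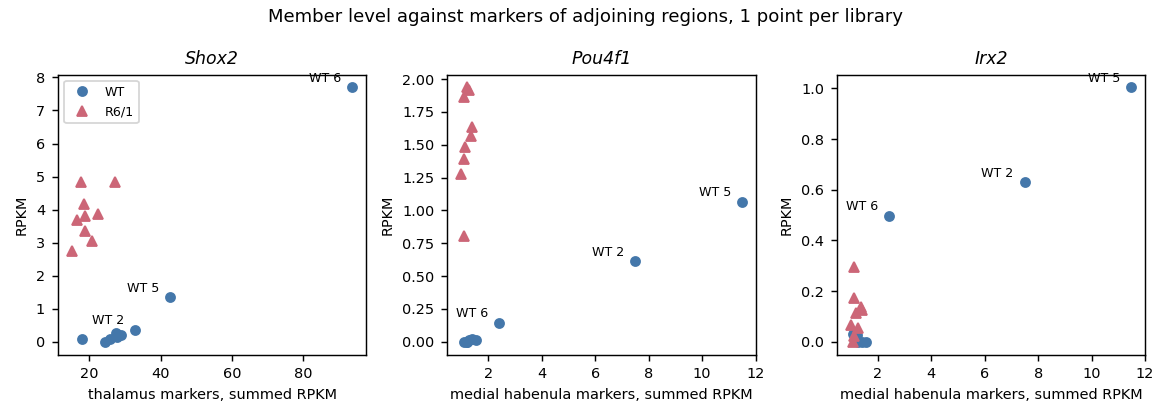
RPKM of Shox2 against the summed RPKM of 6 thalamus markers, and of Pou4f1 and Irx2 against the summed RPKM of 4 medial habenula markers, 1 point per library (circles WT, triangles R6/1). WT 6 stands apart by thalamus markers and WT 2 and WT 5 by habenula markers; the R6/1 libraries hold Shox2 and Pou4f1 at low marker levels.

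TALE-class members, whose Meis and Pbx proteins bind DNA together with other homeodomain proteins, were called in both directions. Over every gene with a value, 4 of 10 were called higher (40%, against 17.6% of all genes) and 2 lower (20%, against 17.7%). Meis1 rose, from 0.282, 0.572 and 0.832 RPKM in WT to 1.12, 1.48 and 1.75 RPKM in R6/1, with no overlap (log2 fold change 0.88, SE 0.097, limma adjusted p = 3.79e-07). Pbx3 was at 2.07, 2.49 and 3.45 RPKM in WT and 2.83, 3.22 and 3.62 RPKM in R6/1 (log2 fold change 0.25, SE 0.079, adjusted p = 0.0124). Meis3 fell from 10.4, 12.7 and 14.5 RPKM to 8.84, 10.1 and 10.9 RPKM (log2 fold change -0.32, SE 0.055, adjusted p = 9.49e-05). Meis1 and Meis3 moved in opposite directions, whereas Meis2 was at 5.45, 8.02 and 13.7 RPKM in WT and 6.90, 9.87 and 10.7 RPKM in R6/1 and did not pass the test (adjusted p = 0.298). Annotated genes lie opposite Meis1 (Gm16140 and Gm16141) and Pbx3 (C79798).

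The Irx genes lie in clusters on chromosomes 8 and 13, and the 2 calls among them upwards were both on chromosome 8. Irx5 was at 0, 0.111 and 0.421 RPKM in WT and 0.275, 0.380 and 0.454 RPKM in R6/1, with 42 reads against 126 (log2 fold change 0.47, SE 0.092, limma adjusted p = 0.000446). WT replicates 5 and 6 were the highest; without WT replicates 2, 5 and 6 the WT maximum was 0.140 RPKM and the genotypes did not overlap. Irx3 was at 0.0526, 0.200 and 0.348 RPKM in WT and 0.229, 0.290 and 0.587 RPKM in R6/1, with 56 reads against 117 (log2 fold change 0.32, SE 0.095, adjusted p = 0.0131). Irx6, in the same cluster, was lower, at 0.0377, 0.0751 and 0.150 RPKM in WT and 0, 0.0196 and 0.103 RPKM in R6/1 (36 against 17 reads, log2 fold change -0.13, adjusted p = 0.0261), and lost the call without WT replicates 2, 5 and 6 (adjusted p = 0.0757) or without any 1 of WT replicates 2 and 3 and R6/1 replicates 4 and 7 (adjusted p of 0.0515 to 0.0522). On chromosome 13, Irx1 and Irx2 did not pass the test over all libraries (log2 fold changes of -0.22 and -0.17), and Irx4 had 1 read in all 18 libraries. Without those 3 WT libraries the differences turned to 0.06 for Irx1 and 0.23 for Irx2, the latter with an adjusted p of 0.0368.

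Of the 5 SINE-class members, Six6 and Six4 rose and Six5 fell. Six6, an eye and hypothalamus factor, had 4 reads in WT and 116 in R6/1, at 0, 0 and 0.0166 RPKM against 0.0744, 0.214 and 0.378 RPKM, with no overlap (log2 fold change 0.46, SE 0.065, limma adjusted p = 1.65e-05). Six4 lies 173 kb from it by their starts on chromosome 12, and was at 0.275, 0.416 and 0.593 RPKM in WT and 0.548, 0.625 and 0.950 RPKM in R6/1 (log2 fold change 0.34, SE 0.09, adjusted p = 0.00351). Six5 was at 0.514, 0.900 and 1.16 RPKM in WT and 0.380, 0.534 and 0.857 RPKM in R6/1 (log2 fold change -0.32, SE 0.11, adjusted p = 0.0207). Six2 did not pass the test, with means of 0.155 and 0.153 RPKM. Six3 was at 1.62 RPKM in WT replicate 6 and at most 0.447 RPKM in the other WT libraries; its log2 fold change was 0.11 (adjusted p = 0.726), and 0.38 without WT replicates 2, 5 and 6 (adjusted p = 0.0314). The gene 4930447C04Rik is annotated opposite Six6.

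Of the ANTP members of the dorsal forebrain and glia, Nkx6-2 and Emx2 were higher and Emx1 lower, each with overlapping genotypes. Nkx6-2, a factor of oligodendrocyte maturation, was at 3.05, 4.29 and 4.81 RPKM in WT and 4.04, 5.42 and 7.43 RPKM in R6/1 (log2 fold change 0.40, SE 0.1, limma adjusted p = 0.00267). The oligodendrocyte markers were lower, at summed levels of 1045 to 1341 RPKM in WT and 636 to 1106 RPKM in R6/1, with 6 of 8 called lower and 0 higher. Their part in the Nkx6-2 values was not tested. Emx2 was at 5.22, 6.01 and 7.11 RPKM in WT and 6.24, 6.79 and 7.69 RPKM in R6/1 (log2 fold change 0.16, SE 0.059, adjusted p = 0.0344). Emx1, a marker of cortical and hippocampal excitatory lineages, was at 4.78, 6.80 and 8.21 RPKM in WT and 4.35, 5.74 and 7.27 RPKM in R6/1 (log2 fold change -0.26, SE 0.11, adjusted p = 0.0471). Both Emx calls were marginal, and 15 of 32 alternatives for Emx1 and 9 of 32 for Emx2 did not reach the threshold. The hippocampal neuron markers, with all 10 called lower, moved in the direction of Lhx2 and Emx1, and their part in these values was not tested. Nkx2-2, at 1.13 to 1.90 RPKM in WT and 0.811 to 1.73 in R6/1, Msx1, at 0.310 to 1.40 and 0.376 to 0.769 RPKM, and the PRD member Otx1, at 1.09 to 1.79 and 1.08 to 1.67 RPKM, did not pass the test. Inpp5a is annotated opposite Nkx6-2.

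Of the members not yet described, Evx1 was called higher and the others did not pass the test or had no reads. Evx1, of spinal interneurons, had 3 reads in WT and 26 in R6/1, a ratio of 7.83 with a counting interval of 2.40 to 40.4 (log2 fold change 0.15, limma adjusted p = 0.0284). Its call was lost without WT replicates 2, 5 and 6 (adjusted p = 0.0836), without R6/1 replicate 4 (0.0571) and without R6/1 replicate 7 (0.0537). Phox2a, of noradrenergic neurons, had 2 reads in R6/1 and 0 in WT, and Pitx3, of dopaminergic neurons, had 5 reads in R6/1 and 1 in WT. Pitx1, Gbx1, Gbx2, Barhl1, Barhl2, Msx2 and Alx4, with means of at most 0.523 RPKM in either genotype, and Nkx6-1 (14 reads in WT, 28 in R6/1, adjusted p = 0.0904) did not pass the test either. Without WT replicates 2, 5 and 6 the log2 fold change of Nkx6-1 was 0.19 (limma adjusted p = 0.0285). It was also called by quantile normalization.

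Other homeobox genes, 109 in number and outside the member list and the Hox clusters, were called in both directions. Of the 52 tested, 13 were called higher (25%) and 14 lower (26.9%) by limma, close to the shares over all genes tested. Without the limit on level, 98 had a value, and 22 of them were called higher (22.4%, against 17.6% of all genes with a value). Lower calls then numbered 17 (17.3%, against 17.7%). Every R6/1 library lay above every WT library in 9 of the 98, and below in 5 (background 4.06% and 4.6%). Among the 52 tested, these separations numbered 6 upwards and 5 downwards. Large increases were again found in genes near 0 in WT. Barx1, of branchial arch and stomach, had 0 reads in all 9 WT libraries and 343 in R6/1, at 0.876 to 2.68 RPKM (adjusted p = 5.05e-11; its fitted log2 fold change of 2.14 depends on the pseudocount). Gsx2 was at 0 to 0.261 RPKM in WT and 0.625 to 2.01 RPKM in R6/1 (log2 fold change 1.49), and Dlx4 at 0 to 0.173 and 0.462 to 1.67 RPKM (1.41). The largest decreases were Sebox (-1.04), Hopx, of dentate stem cells and astrocytes (-0.95), Zeb2 (-0.69) and Dbx2 (-0.59). Of the genes for partners of Meis and Pbx proteins, Pknox1 rose by 0.25 (adjusted p = 0.00089), while Pknox2 (0.11, adjusted p = 0.322) did not pass the test.

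Cofactors that bind LIM-class, SINE-class or Groucho-recruiting homeodomain proteins were lower or did not pass the test. Of the 19 tested, 0 were called higher by limma (24.8% of all genes) and 9 were called lower (47.4%, against 23.5% of all genes). At an unadjusted p under 0.05, 0 were higher, and voom on the reads called 0 higher (20% of all genes). Quantile normalization and scaling to each library's own total each called a cofactor higher. The largest decreases were Tle2 (log2 fold change -0.95, adjusted p = 8.39e-06), Ssbp4 (-0.69), Tle1 (-0.65) and Lmo2 (-0.64). Lmo4, which competes with LIM-homeodomain proteins for Ldb1, fell from 56.0 to 78.1 RPKM in WT to 43.8 to 49.0 RPKM in R6/1 (-0.52, adjusted p = 3.06e-08). Ldb1, the shared scaffold of LIM complexes, was at 22.9 to 30.8 and 25.2 to 29.4 RPKM and did not pass the test (-0.03, adjusted p = 0.661).

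Few members lay in lamin B1 domains, the long chromatin stretches that touch the nuclear lamina. The deposited lists hold 145 WT and 166 R6/1 domains, 1 list per genotype, so no test was possible. The starts of 7 of 53 members (13.2%) lay in a domain of either genotype, against 4540 of the 22057 genes placed on NCBIM37 (20.6%). Among the 31 members under 0.5 RPKM, Isl1 alone was in a domain (3.23%), against 2700 of 8200 such genes (32.9%). Isl1, Meis2 and Pou4f1 were in domains of both genotypes. Dlx5, Dlx6, Lhx9 and Shox2 were in a WT domain and in no R6/1 domain (7.55%, against 5.14% of all placed genes), and 0 members were in an R6/1 domain only. Of these 4, Shox2 was called higher, Dlx6 was called lower, and Dlx5 and Lhx9 did not pass the test. The start of Shox2 was 1888 kb from the nearest R6/1 domain, those of Dlx5, Dlx6 and Lhx9 124, 143 and 336 kb. The 7 members without overlap between genotypes (En1, En2, Dlx2, Meis1, Lhx4, Isl2 and Six6) were in no domain of either list. The same held for 86.8% of all members and 79.4% of all placed genes. The start of En1 was 970 kb from the nearest WT domain. The median of this distance was 2690 kb over members and 2799 kb over all placed genes.

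The authors' deposited table of the same comparison lists 17 members as higher and 6 as lower among 47 with an adjusted p (background 20% and 20.4%). Of the 23 members called here over every gene with a value, 22 were called there in the same direction, and Shox2 was the exception. The choroid plexus markers summed to 26.5 to 1085 RPKM in WT and to 39.7 to 1756 RPKM in R6/1. By limma 0 of the 10 were called (0 at an unadjusted p under 0.05). With their mean level as a covariate, 18 members were called higher and 6 lower over every gene with a value. Without the covariate 18 were called higher and 5 lower in that fit. Over genes averaging at least 0.5 RPKM, the covariate fit called 3661 higher and 3482 lower, against 3586 and 3394 without it.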

How the data were processed

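Hippocampal RNA-seq was made with a stranded messenger RNA kit, per the labels' protocols; the submitters' processing notes name TopHat, Bowtie, DESeq2 and build mm9, which is NCBIM37. The authors deposited RPKM per gene and library, and the low values are whole multiples of 1 read for over 99.7% of values within 0.05 read, which gave back the reads. The authors' deposited comparison table holds, per the file headers, a mean normalized signal, a log2 fold change with its error, and a score, p-value and adjusted p of the test. The deposited lamin B1 domain lists hold 1 score per domain, used only to rank domains.

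Groups follow the genotype in the labels, and 0 per-sample columns were left unused. Each gene was tested with limma 3.58.1 (R 4.3.3; lmFit and eBayes with trend, two-sided) on log2(RPKM + 0.5) in genes averaging at least 0.5 RPKM, with Benjamini-Hochberg adjustment at 0.05; "called" means past that threshold. The fit of every gene with a value, used for members under 0.5 RPKM, the ratio of neighbours (exact permutation) and leaving out WT replicates 2, 5 and 6 were chosen after seeing the data. Values per genotype were given for members called or with a mean of at least 2 RPKM; of the other homeobox genes and cofactors, the 4 largest called changes in each direction and 5 preset genes were chosen, some of which are not reported here. Members and lists were chosen with earlier results of these data known. Marker lists came from general knowledge. Of the 24508 symbols 90.0% were placed on NCBIM37 with GENCODE annotation; promoter sequences are RefSeq's. The fit was tested on simulated data. Alternatives were other pseudocounts, filters, scalings, voom on the reads, no trend, library weights, the replicate block, a choroid plexus covariate, each library left out, the authors' table, and other placements in domains. ATAC-seq and ChIP reads were not analysed here.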

Additional observations from a re-analysis of the deposited data

Results flagged for a closer look

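In groups of 9 libraries, 7 of 96 examined had a highest or lowest library with a wide gap to the rest, where chance gives about 1 in 20 (4.8), and 5 of the 7 were at WT replicate 6. In that library Shox2 stood at 7.70 RPKM (next WT library 1.36), Six3 at 1.62 (next 0.447) and the summed thalamus markers at 93.8 (next 42.7), while Dlx5 was low at 0.982 RPKM (next 1.67) and Lhx2 low at 18.6 (next 21.9). Lhx8 was at 0.0320 RPKM in WT replicate 5, from its single WT read, and at 0 in the other WT libraries. Isl2 was at 0.943 RPKM in R6/1 replicate 6, with 0.517 in the next R6/1 library, and still above all WT libraries. The source of these gaps was not tested.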

How the results depend on the processing

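Of the 24 members called in either fit, 17 kept direction and call under all alternatives run for them, and 0 reversed. The members called higher (10) numbered 18 without a filter, 5 at a mean of at least 2 RPKM, 18 by voom and 17 in the authors' deposited table; fewer members are tested at 2 RPKM and more in the others. Those called lower (5) numbered 3 at 2 RPKM and 3 by own total, and over every gene with a value 2 by own total and 3 by quantile normalization. Own totals turned the calls over all genes from 51.4% to 66.9% higher. Other homeobox genes called higher (13) numbered 22 without a filter, 7 at 2 RPKM, 24 by voom and 21 in the authors' table. Cofactors called higher (0) were 1 by quantile normalization and 1 by own total. Members with a mean over a minimum of 0.1 RPKM, in place of 0.5, numbered 39. Small differences that did not pass the test changed sign: Otx1 to 0.03 by quantile normalization, 0.03 by own total and 0.02 without WT replicates 2, 5 and 6; Dlx1 to 0.03 and 0.05, and Dlx5 to 0.02 and 0.02, by the same 2 scalings; Irx1 to 0.06 and Irx2 to 0.23 without those WT libraries, and Irx2 to 0.27 by voom. The cause was not tested. Leaving out 1 library gave 9 to 10 members higher and 4 to 5 lower (16 to 19 and 4 to 6 over every gene with a value), and -0.06 to 0.01 for Otx1, -0.05 to 0.03 for Dlx1 and -0.12 to 0.01 for Dlx5. The call of Emx1 held in 7 of these 18 (adjusted p up to 0.094 in the others) and that of Emx2 in 10 of 18 (up to 0.0697), while Nkx6-1 was called without WT replicate 5 (0.0199), WT replicate 7 (0.0419) or R6/1 replicate 1 (0.0477). Same-numbered libraries did not deviate together (r from -0.05 to 0.24, over 0.1 in 3 of 9 numbers, and 2 of 9 WT libraries correlated best with their own number). With the replicate number as a block 10 members were called higher and 5 lower, as without it; Irx3 had an adjusted p of 0.0501 and Nkx6-1 of 0.0433 (limma). For members with few reads in WT, the counting intervals of the ratios show how far depth limits the size of a change.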
